A study of Mus musculus with 6 samples.

Results

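The genes described here encode pyruvate dehydrogenase, the mitochondrial enzyme complex that turns pyruvate into acetyl-CoA, and the proteins that control it. Of 10 listed genes, 7 had a row whose array annotation gave that symbol alone, out of 14860 genes with such a row. These were Pdha1, Pdhb, Dlat and Dld, which encode the complex itself, and the kinase genes Pdk1, Pdk2 and Pdk4. The phosphatase genes Pdp1 and Pdp2 and the pyruvate carrier gene Mpc2 were listed but not analysed here, since 3 of the 10 symbols had no row of their own in the annotation used. Each of the 7 genes had a single row. The list was drawn up by function, with earlier results of these data known.

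The left ventricle of each of 6 male wild-type C57BL/6 mice was hybridized to its own Affymetrix Mouse Exon 1.0 ST array. Transverse aortic constriction (TAC), a ligature that narrows the aorta and loads the left ventricle with pressure, had been in place for 1 week in 2 mice (1 W TAC) and for 4 weeks in 2 mice (4 W TAC). The other 2 mice were operated without narrowing the aorta (Sham) and served as the controls at both times, and neither the age of the mice nor the time since the sham operation is stated. No mouse carried a transgene or a deletion by the labels. A signal below is the log2 value made by the authors with robust multi-chip analysis (RMA), and a log2 ratio is a difference of 2 group means.

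Pyruvate dehydrogenase joins glycolysis to the tricarboxylic acid cycle. Its E1 component, built from an alpha and a beta subunit, removes carbon dioxide from pyruvate with the help of thiamine pyrophosphate. The E2 component passes the acetyl group to coenzyme A, and E3 restores the lipoyl group that carries it. Kinases of the Pdk family phosphorylate the alpha subunit of E1 and switch the complex off, and phosphatases switch it on again. The adult heart draws most of its energy from fatty acids, and Pdk4, which is induced by fasting and by the fatty acid receptors of the PPAR family, is known for holding glucose oxidation back under that fuel supply.

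The arrays showed the high signals of ventricular muscle, with Tnnt2 (cardiac troponin T) between 12.65 and 12.83 and Myl2 (ventricular myosin light chain) between 12.90 and 13.28 on all 6 arrays. Ucp1, the uncoupling protein of brown fat, set 2 arrays apart from the rest. Its signal was 6.35 in 4 W TAC replicate 1 and 8.21 in Sham replicate 1, and between 3.96 and 4.40 on the other arrays. The medians at 4 W TAC against Sham, and the ratios of the 7 genes there, are therefore given with and without these 2 arrays. Across the 14860 genes, 2 arrays correlated with a Pearson r between 0.968 and 0.988.

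After 1 week of TAC, Pdha1, Pdhb, Dlat and Dld and the kinase genes Pdk1, Pdk2 and Pdk4 each had a lower signal than in Sham. The kinase gene Pdk3, which is not among the 7 and is described below, had a higher one. The log2 ratios of the 7 genes lay between -1.13 for Pdhb and -0.38 for Pdha1, with a median of -0.53, where the median of all genes was 0.01. For 7 of 7 genes both 1 W TAC arrays lay below both Sham arrays, against 20.4% of all genes (22.1% lay above). A ratio below 0 was found for 7 of 7 genes and for 47.7% of all genes, or 62.2% of all genes after median centring of the arrays. At an unadjusted p under 0.05 from limma 4 of the 7 genes were lower and 0 higher, against 4.87% and 7.16% of all genes. Adjusted over all 23332 rows, 0 of the 7 genes passed limma's test, where the share of all rows that passed was 0.00429%. The smallest adjusted p of the 7 was 0.173, for Pdhb. With 2 arrays a group the precision is low, and an exact permutation test of 2 against 2 arrays cannot give a two-sided p below 0.333.

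**Figure D1:**
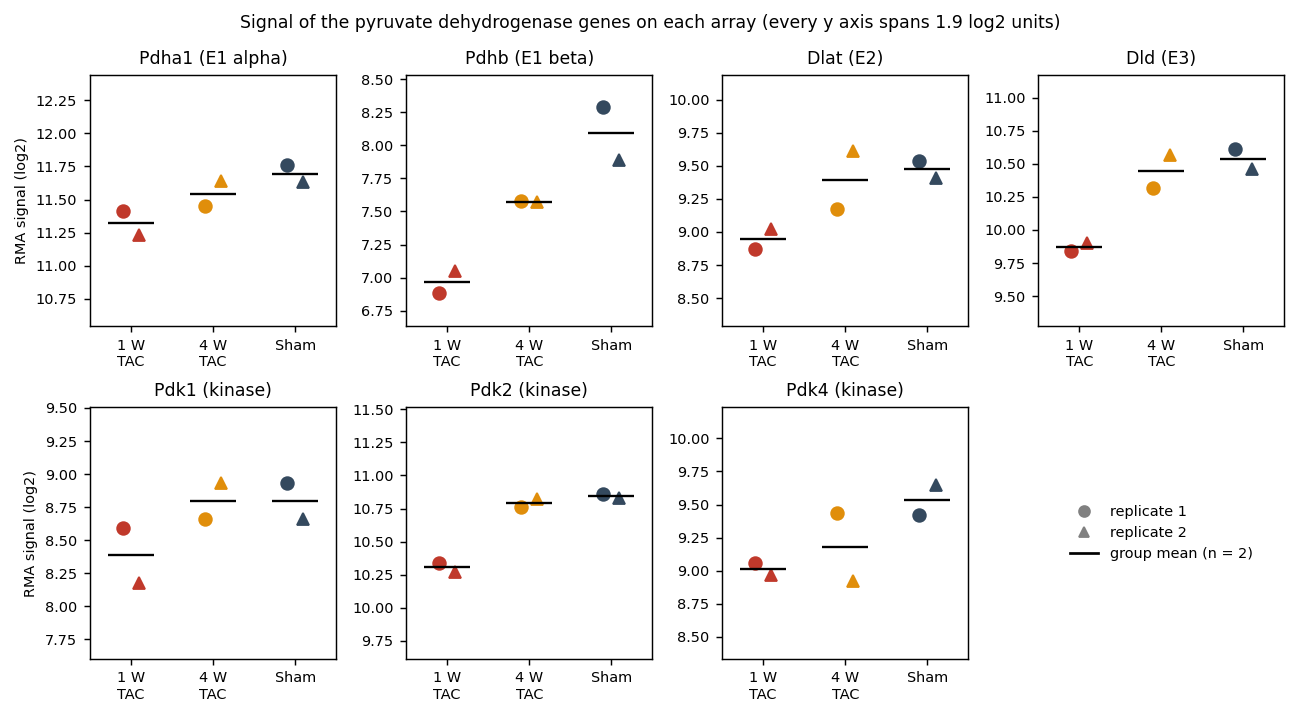
RMA signal on the log2 scale (y axis) of the 7 pyruvate dehydrogenase genes on each array, by group (x axis). Circles and triangles are replicates 1 and 2, and bars are group means of 2 arrays. The 1 W TAC points lie below both Sham points in all 7 panels, by the widest distance for Pdhb.

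Pdhb, which encodes the beta subunit of E1, had the lowest ratio of the complex. Its signals were 6.88 and 7.05 in 1 W TAC, 7.58 and 7.57 in 4 W TAC, and 8.29 and 7.89 in Sham. The 3 groups did not overlap, with 1 W TAC lowest, 4 W TAC between and Sham highest. At 1 W TAC the log2 ratio to Sham was -1.13 (standard error 0.20, 95% interval -1.62 to -0.63), a signal 2.18-fold lower. Limma's adjusted p for Pdhb was 0.173 with all rows in the fit. It was 0.0336 when the fit held only rows with 1 gene symbol, 1 row per gene. With only rows above the median signal it was 0.0316. In both of these fits limma's prior was estimated anew from the rows kept. Over the remaining alternatives the adjusted p ran from 0.109 to 0.597.

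Pdha1 encodes the alpha subunit of E1, which carries the sites that the kinases phosphorylate, and it lies on the X chromosome. Its signals were 11.41 and 11.23 in 1 W TAC, against 11.76 and 11.63 in Sham, and the groups did not overlap. The log2 ratio was -0.38 (standard error 0.17), with an adjusted p of 0.508 from limma. Pdhb and Pdha1 are partners in the same E1 assembly, and the ratio of Pdhb was lower than that of Pdha1 by 0.75 log2 units (within-group SD of the difference 0.20). This difference had an exact permutation p of 0.333, the smallest possible, and was picked after the values were seen. It belongs to 15 such differences, for which p adjusted over all of them was at least 0.625.

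Dlat, the acetyltransferase E2, had signals of 8.87 and 9.02 in 1 W TAC, against 9.54 and 9.41 in Sham. Dld, the dehydrogenase E3 that this complex shares with the related enzymes of 2-oxoglutarate and branched-chain amino acids, had 9.84 and 9.90 in 1 W TAC, against 10.61 and 10.46 in Sham. For both genes the 1 W TAC arrays were the lowest of all 6. Their log2 ratios were -0.53 (standard error 0.21) for Dlat and -0.67 (standard error 0.17) for Dld, or 1.44-fold and 1.59-fold lower signals, with adjusted p of 0.428 and 0.268 from limma.

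The kinase genes Pdk1, Pdk2 and Pdk4 had lower signals as well, on the same side of Sham at 1 W TAC as the genes for the complex. Pdk3, a further kinase gene described below, lay above Sham. Pdk2, a kinase found in most tissues, had signals of 10.34 and 10.27 in 1 W TAC, 10.76 and 10.82 in 4 W TAC, and 10.86 and 10.83 in Sham. Its replicates lay close together, and the 1 W TAC pair stood apart from the other 4 arrays. The log2 ratio at 1 W TAC was -0.54 (standard error 0.15, adjusted p = 0.289 from limma), or 1.45-fold lower.

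Pdk4 had signals of 9.06 and 8.97 in 1 W TAC, 9.44 and 8.92 in 4 W TAC, and 9.42 and 9.65 in Sham. The 1 W TAC arrays were both below Sham, while the 4 W TAC arrays split, with replicate 1 inside the Sham range and replicate 2 below every other array. The log2 ratio was -0.52 (standard error 0.23) at 1 W TAC, with an adjusted p of 0.484 from limma. Sham replicate 1, an array with high Ucp1, had the lower Pdk4 signal of the Sham pair, and without both such arrays the ratio of Pdk4 was -0.64 at 1 W TAC. The ratios of Pdk4 and Pdk2 differed by 0.02 log2 units at 1 W TAC (exact permutation p = 1, within-group SD of the difference 0.26).

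Pdk1, a kinase gene known as a target of the hypoxia factor HIF-1, had signals of 8.59 and 8.18 in 1 W TAC, 8.66 and 8.93 in 4 W TAC, and 8.93 and 8.66 in Sham. The 4 W TAC pair and the Sham pair held the same 2 values, and the 1 W TAC replicates differed by as much as the group means. The log2 ratio at 1 W TAC was -0.41 (standard error 0.22, adjusted p = 0.586 from limma). Without 1 W TAC replicate 2 it was -0.21, and without 1 W TAC replicate 1 it was -0.62.

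The count of 4 genes lower at an unadjusted p under 0.05 held Pdhb, Dlat, Dld and Pdk2. It was 2 without 1 W TAC replicate 1 (Pdhb and Pdk2) or without 1 W TAC replicate 2 (Pdhb and Dld). It was 3 without either Sham array, where Dlat was lost, and 3 without both arrays with high Ucp1, where Pdhb, Dld and Pdk4 were counted. The log2 ratio was below 0 for each of the 7 genes with every array left out in turn and under both other scalings between arrays.

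**Figure D2:**
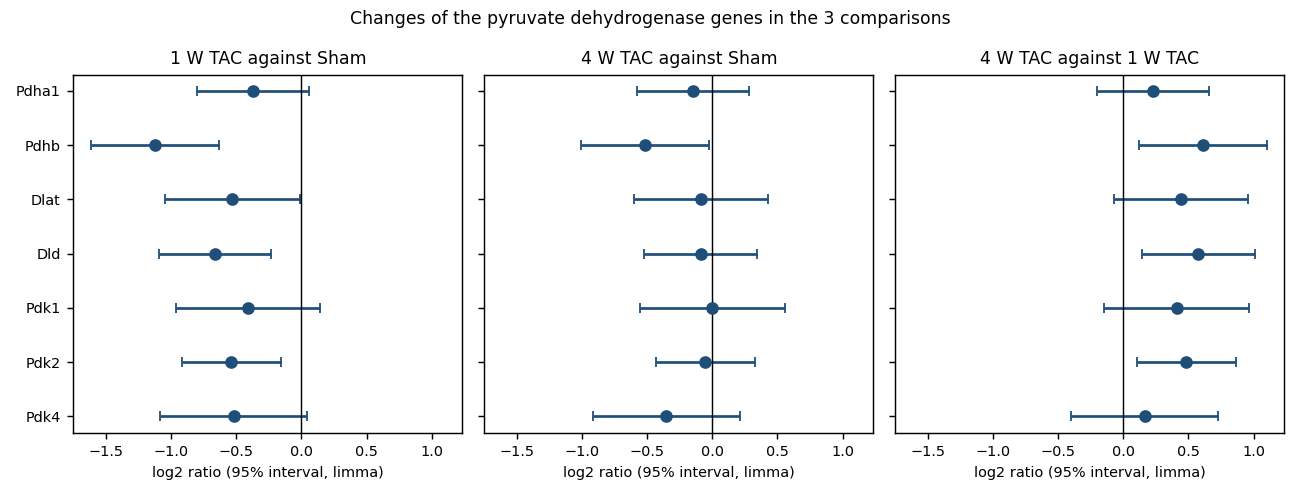
Log2 ratios of the 7 genes (x axis) with 95% intervals from limma in the 3 comparisons. At 1 W TAC against Sham the interval lay below 0 for Pdhb, Dlat, Dld and Pdk2, at 4 W TAC against Sham for Pdhb, and at 4 W TAC against 1 W TAC it lay above 0 for Pdhb, Dld and Pdk2.

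After 4 weeks of TAC the ratios to Sham were smaller, and several of them depended on single arrays. The median log2 ratio to Sham was -0.09, where that of all genes was 0.04. Pdhb was the gene with the lowest ratio, -0.52 (standard error 0.20), or 1.43-fold lower, and Pdk4 had -0.36 (standard error 0.23). The ratio of Pdk4 was -0.095 without 4 W TAC replicate 2 and -0.615 without 4 W TAC replicate 1, and that of Pdhb was -0.315 without Sham replicate 1. Pdha1 ran from -0.245 without 4 W TAC replicate 2 to -0.055 without 4 W TAC replicate 1, and the same omissions gave -0.305 and 0.135 for Dlat and -0.215 and 0.035 for Dld. The other 5 genes lay between -0.15 for Pdha1 and 0.00 for Pdk1. The 4 W TAC arrays were both below Sham for 2 of 7 genes, Pdhb and Pdk2, against 12.9% of all genes, and above it for 0 of 7 genes, against 17.3%. A ratio below 0 was found for 6 of 7 genes and 41.9% of all genes, or 55.5% after median centring. For Pdk2 the separation was a gap of 0.01 between the nearest arrays. At an unadjusted p under 0.05 from limma 1 gene (Pdhb) was lower, against 1.39% of all genes, and 0 were higher, against 2.42%. That count was 0 without Sham replicate 1, without 4 W TAC replicate 2 or without either 1 W TAC array. Without 4 W TAC replicate 1, and without both arrays with high Ucp1, the 1 gene counted was Pdk4 and Pdhb no longer passed, so that of the single omissions Pdhb passed only with Sham replicate 2 left out. Adjusted over all rows 0 rows passed (0%), and the smallest adjusted p of the 7 genes was 0.861. Without both arrays with high Ucp1 the median ratio was 0.01, that of Pdhb was -0.32, that of Pdk4 was -0.73 and that of Pdk2 was -0.01, and Dlat, Dld, Pdha1 and Pdk1 had ratios of 0.20, 0.11, 0.01 and 0.27.

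Set against 1 W TAC directly, the signals at 4 W TAC were higher for the complex and for Pdk1 and Pdk2. Both 4 W TAC arrays lay above both 1 W TAC arrays for 6 of 7 genes, against 20.3% of all genes, and below them for 0 of 7 genes, against 16.6%. Pdk4 was the exception, with overlapping groups. The log2 ratios of 4 W TAC to 1 W TAC were 0.61 for Pdhb (standard error 0.20), 0.58 for Dld (standard error 0.17) and 0.49 for Pdk2 (standard error 0.15). These 3 genes were higher at an unadjusted p under 0.05 from limma, against 2.46% of all genes, and 0 were lower, against 3.33%. The ratio was 0.45 for Dlat, 0.41 for Pdk1, 0.23 for Pdha1 and 0.17 for Pdk4 (standard error 0.23), and without 4 W TAC replicate 1 that of Pdk4 was -0.10. Without 4 W TAC replicate 2 the ratio was 0.225 for Dlat, 0.275 for Pdk1 and 0.13 for Pdha1, and without 1 W TAC replicate 2 it was 0.205 for Pdk1 and 0.135 for Pdha1. The adjusted p of limma was at least 0.678 for all 7 genes, and 0 rows passed (0%). The count of 3 genes was 0 without 4 W TAC replicate 2 or without either 1 W TAC array, and without 4 W TAC replicate 1 it was 2, for Dlat and Dld.

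Among themselves the genes fell into closer and wider pairs. After each gene was centred on its mean, the root mean square distance over the 6 arrays was 0.09 log2 units between Dlat and Dld and also between Dld and Pdk2, the closest pairs of the 7. The widest distances were 0.36 between Pdhb and Pdk1 and 0.35 between Pdhb and Pdk4. By the same measure the genes nearest to Pdhb, among 7426 genes above the median signal, were Tmem82 at 0.05, Fahd1 at 0.09 and Osgepl1 at 0.10. Those nearest to Pdk2 were Oxa1l and Coq8a at 0.04 and Tmem201 at 0.05. These distances rest on 6 arrays and carry no test.

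Cell type markers differed between the same groups. For comparison with the counts below, 47.7% of all genes had a ratio below 0 at 1 W TAC. The summed signal of 11 fibroblast markers, on the log2 scale, was 14.22 and 14.56 in 1 W TAC, 13.30 and 13.66 in 4 W TAC, and 12.64 and 12.54 in Sham, and 11 of 11 had a ratio above 0 at 1 W TAC. The sum of 10 macrophage markers was 11.18 and 11.60 in 1 W TAC, 10.25 and 10.59 in 4 W TAC, and 10.12 and 9.99 in Sham, and 10 of 10 had a ratio above 0 at 1 W TAC. The sum of 8 cardiomyocyte markers was 15.54 and 15.48 in 1 W TAC, 15.63 and 15.69 in 4 W TAC, and 15.76 and 15.71 in Sham, and 7 of 8 had a ratio below 0 at 1 W TAC, with a median of -0.22. That of 10 endothelial markers was 11.90 and 11.86 in 1 W TAC, against 12.04 and 11.84 in Sham. The sum of 9 fat markers, which include Ucp1, was 8.86 and 8.91 in 1 W TAC, 9.36 and 8.95 in 4 W TAC, and 9.89 and 9.00 in Sham. Of 6 atrial markers 5 had a ratio below 0 at 1 W TAC, with a median of -0.745. At 4 W TAC against 1 W TAC 4 of 6 did not overlap and were higher, against 20.3% of all genes, with a median of 0.74. Myl7, the atrial myosin light chain, had signals of 6.74 and 6.33 in 1 W TAC, 7.77 and 8.92 in 4 W TAC, and 7.59 and 8.06 in Sham. Nppa, the atrial natriuretic peptide gene, which the ventricle also expresses under load, was the exception, with 12.90 and 13.16 in 1 W TAC, against 10.86 and 11.61 in Sham. Of 6 listed erythroid markers 2 were measured. Alas2, the haem synthesis enzyme of red cell precursors, had 5.60 and 6.39 in 1 W TAC, 6.40 and 6.90 in 4 W TAC, and 7.39 and 7.38 in Sham. Slc4a1, the other one, had 5.55 and 5.45 in 1 W TAC, against 5.56 and 5.74 in Sham (log2 ratio -0.15). The summed signal of the 6 atrial markers, Nppa included, went the other way. It was 13.02 and 13.23 in 1 W TAC, 12.90 and 12.98 in 4 W TAC, and 11.55 and 12.09 in Sham. By its median ratio the atrial list thus had the direction of the 7 genes at 1 W TAC. So did the fat list (-0.335), the cardiomyocyte list (-0.22) and, weakly, the endothelial list (-0.055). The ratios of Alas2 and Slc4a1 were also below 0. The median was -0.0075 for 10 smooth muscle and pericyte markers, 5 of them above 0, and 0.18 for 5 skeletal muscle markers. Part of the fat list was high in Sham replicate 1 and not in Sham replicate 2. Adipoq had 5.27 and 3.53 there, against 3.74 and 3.91 in 1 W TAC. Of the 9 fat markers 3 did not overlap and were lower at 1 W TAC, against 20.4% of all genes. Fewer cells of a type and less RNA per cell cannot be told apart in these ventricles, and the part of the cell mixture in the lower signals was not tested.

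**Figure D3:**
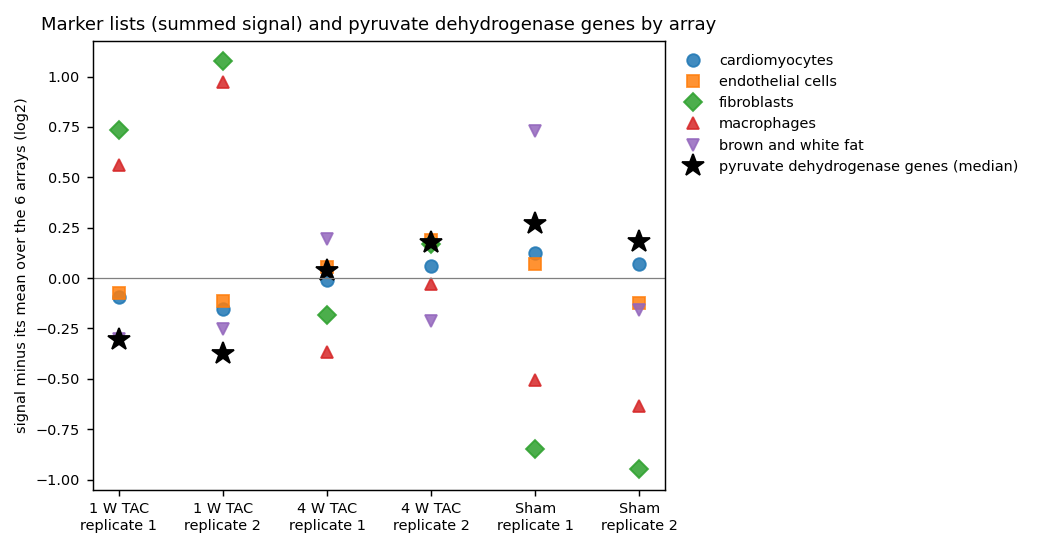
Summed signal of 5 marker lists and median of the 7 pyruvate dehydrogenase genes on each array (x axis), each minus its mean over the 6 arrays, on the log2 scale (y axis). Fibroblast and macrophage markers are highest and the pyruvate dehydrogenase genes lowest in 1 W TAC, and the fat markers are highest in Sham replicate 1.

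Other genes that build or serve the complex were mostly below Sham at 1 W TAC, with the kinase gene Pdk3 above it. At an unadjusted p under 0.05, 3 were lower and 1 higher, against 4.87% and 7.16% of all genes. Of 14 listed genes 10 were measured, with a median log2 ratio of -0.26. That median was -0.1375 without Sham replicate 1, -0.16 without 1 W TAC replicate 1 and -0.4175 without Sham replicate 2. At 4 W TAC the median was -0.075, and -0.015 without both arrays with high Ucp1. Pdhx, which encodes the protein that anchors E3 to the E2 core, had signals of 8.66 and 8.96 in 1 W TAC, against 9.32 and 9.29 in Sham (log2 ratio -0.50). Pdpr, a regulatory subunit of the phosphatase, had 7.91 and 7.93 in 1 W TAC, against 8.68 and 8.27 in Sham (log2 ratio -0.56, and -0.35 without Sham replicate 1). For both genes the groups did not overlap. Slc19a3, a thiamine transporter gene, had a log2 ratio of 0.19, and 0.09 without Sham replicate 1. Its groups overlapped, and its row was weak, at percentile 13.7 of all genes by mean signal.

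Pdk3 encodes a further kinase of the same family. Its signals were 5.59 and 6.31 in 1 W TAC, 5.40 and 5.32 in 4 W TAC, and 5.23 and 4.82 in Sham. All TAC arrays lay above both Sham arrays, though the nearest, 5.32 in 4 W TAC and 5.23 in Sham, were close. The log2 ratio at 1 W TAC was 0.93 (standard error 0.29, adjusted p = 0.325 from limma), opposite in sign to Pdk1, Pdk2 and Pdk4. The row of Pdk3 was weak, with its mean signal at percentile 40.8 of all genes. Pdk1, Pdk4 and Pdk2 lay at percentiles 92.9, 96.0 and 99.0. Without 1 W TAC replicate 2 the ratio of Pdk3 was 0.565. The ratio of Pdk3 exceeded that of Pdk2 by 1.47 log2 units at 1 W TAC, with a within-group SD of the difference of 0.36. Its exact permutation p of 0.333 was the smallest possible, so this test could not decide on the difference. Adjusted over the 15 differences that p was 0.625, and the pair was chosen with earlier results of these data known. Macrophage and fibroblast markers were higher on the same arrays, and their part in the Pdk3 signal was not tested.

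The related 2-oxoacid dehydrogenases are built on the same plan and share Dld. Of 9 listed genes 7 were measured. At 1 W TAC 7 of 7 had a log2 ratio below 0, against 47.7% of all genes, with a median of -0.97. At an unadjusted p under 0.05, 5 were lower and 0 higher, against 4.87% and 7.16% of all genes. Dbt, the E2 of the branched-chain complex, had signals of 7.65 and 7.49 in 1 W TAC, against 8.76 and 8.50 in Sham. Its log2 ratio was -1.06 (standard error 0.18), with an adjusted p of 0.173 from limma over all rows and 0.0326 over rows with 1 gene symbol. The ratio of Dbt was lower than that of Dlat, its counterpart in pyruvate dehydrogenase, by 0.53 log2 units. The exact permutation p was 0.333, again the smallest possible, and 0.625 adjusted over the 15 differences. This pair too was chosen with earlier results of these data known. Ppm1k, the phosphatase of the branched-chain complex, had a ratio of -1.20, and Bckdk, its kinase, had -0.27. Ogdh, the E1 of the 2-oxoglutarate complex, had -0.07, with overlapping groups. The median of this list at 4 W TAC was -0.325. It was -0.14 without 4 W TAC replicate 1 and -0.01 without both arrays with high Ucp1.

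Genes that supply pyruvate or use it in other ways lay on both sides of Sham. At 1 W TAC 3 were lower and 1 higher at an unadjusted p under 0.05, against 4.87% and 7.16% of all genes. Of 14 listed genes 12 were measured, with a median log2 ratio of -0.28 at 1 W TAC. That median was -0.46 without Sham replicate 2 and -0.19 without Sham replicate 1. It counts the row of Pkm, a pyruvate kinase gene, with signals between 5.14 and 5.56 on all 6 arrays, and whether that row measures the transcript of heart muscle was not tested. Gpt, an alanine aminotransferase that exchanges pyruvate and alanine, had signals of 5.54 and 5.34 in 1 W TAC, against 6.62 and 6.23 in Sham (log2 ratio -0.99). Ldhb, the lactate dehydrogenase subunit typical of heart, had 10.87 and 10.52 in 1 W TAC, against 11.43 and 11.48 in Sham (log2 ratio -0.76). Slc16a3, a monocarboxylate carrier known for lactate export from glycolytic cells, had 6.18 and 6.20 in 1 W TAC, against 5.62 and 5.17 in Sham (log2 ratio 0.80). Its row was weak, at percentile 46.2 of all genes by mean signal, and its ratio was 0.57 without Sham replicate 2 and 1.02 without Sham replicate 1. Me2, a mitochondrial malic enzyme that forms pyruvate, had a ratio of 0.22 with overlapping groups. The median at 4 W TAC was -0.085, and 0.12 without both arrays with high Ucp1, and 0 genes of the list passed an unadjusted p under 0.05 there.

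Regulators known to act on Pdk4 or on genes of mitochondrial fuel use were measured for 16 of 16 listed genes. Their median log2 ratio was -0.34 at 1 W TAC. That median was -0.245 without Sham replicate 1 and -0.395 without 1 W TAC replicate 1. At an unadjusted p under 0.05, 5 of these genes were lower and 0 higher at 1 W TAC, against 4.87% and 7.16% of all genes. The median at 4 W TAC was -0.095, and 0.115 without both arrays with high Ucp1. Rxrg, a partner receptor of the PPARs, had signals of 7.39 and 7.06 in 1 W TAC, against 8.11 and 8.06 in Sham (log2 ratio -0.86). Klf15, a factor of fasting metabolism, had 6.93 and 6.16 in 1 W TAC, against 7.38 and 7.25 in Sham (log2 ratio -0.77, and -0.385 without 1 W TAC replicate 2). Hif1a, the oxygen-regulated subunit of HIF-1, had a log2 ratio of 0.45 (0.16 without Sham replicate 2 and 0.73 without Sham replicate 1), and Nr3c1, the glucocorticoid receptor, had 0.04.

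Pdk4 was also set beside other genes known as PPAR targets, 11 of 17 of them measured. Of these, 10 had a log2 ratio below 0 at 1 W TAC, against 47.7% of all genes, with a median of -0.68. That median was -0.54 without 1 W TAC replicate 2 and -0.82 without 1 W TAC replicate 1. At an unadjusted p under 0.05, 7 of these genes were lower at 1 W TAC, against 4.87% of all genes. The value of Pdk4, -0.52, lay inside their range, which ran from -1.82 for Ucp3 to 0.18 for Angptl4. Ucp3, a mitochondrial uncoupling protein gene, had signals of 6.00 and 5.77 in 1 W TAC, against 7.68 and 7.72 in Sham (adjusted p = 0.119 from limma over all rows and 0.00875 over rows with 1 gene symbol). Acot2, an acyl-CoA thioesterase of mitochondria, had 9.50 and 9.14 in 1 W TAC, against 10.36 and 10.21 in Sham (log2 ratio -0.97). Fabp3, the heart fatty acid-binding protein gene, had -0.17, with non-overlapping groups, and Angptl4, an inhibitor of lipoprotein lipase, overlapped between the groups. At 4 W TAC 11 of 11 had a ratio below 0, against 41.9% of all genes, or 55.5% after median centring. Not all of them did without both arrays with high Ucp1. Vldlr then had 9.86 in 4 W TAC against 9.58 in Sham, and Slc25a20 had 9.64 against 9.57. Plin2 and Lpl were also higher, by little, and the other genes of the list were lower. The median at 4 W TAC was -0.235, and -0.17 without both arrays with high Ucp1.

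**Figure D4:**
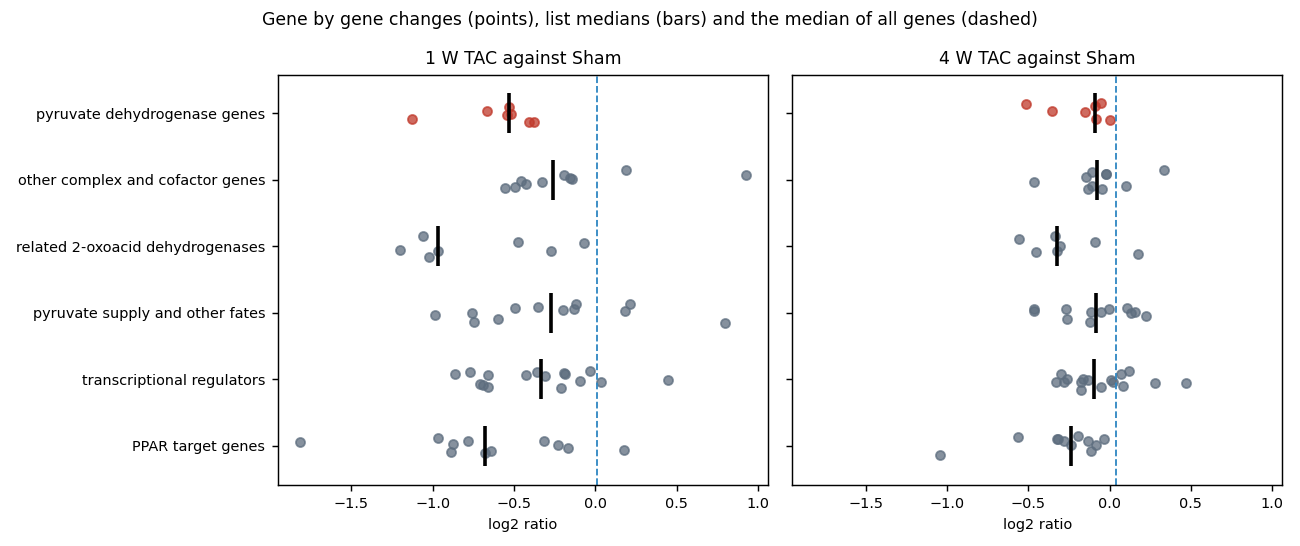
Log2 ratio of each gene (x axis) at 1 W TAC and 4 W TAC against Sham for the 7 pyruvate dehydrogenase genes (red) and 5 lists of related genes (grey), with the list median as a bar and the median of all genes as a dashed line. At 1 W TAC the medians ran from -0.97 for the related 2-oxoacid dehydrogenases to -0.26 for the other complex and cofactor genes, and at 4 W TAC from -0.33 to -0.08.

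The promoters of the 7 genes were read because the genes lay on the same side of Sham at 1 W TAC. RefSeq windows of 300 bases of build GRCm38.p6 were matched for 7 of 7 genes, 9 windows in all, with an extra start site for Pdk1 and for Pdk2. Of the 9 windows, 7 had a G+C content of at least 57.7%, where the median of all 32851 windows was 52.7%. The exceptions were Dld (47.0%) and the second window of Pdk1 (40.3%). Motifs were searched on both strands. TNAAGGTCA, a half-site of the estrogen-related receptors, was found in 0 of 9 windows and in 1.28% of all windows. The direct repeat with 1 base between its repeats, the form of PPAR sites, was found in 0 of 9 windows and in 0.0396% of all, the palindromic site of NRF-1 in 0 of 9 and 0.971%, and TGTTTAC of the FoxO factors in 0 of 9 and 3.65%. No match says only that these letters are not in these windows. The E-box CACGTG was found in 1 window, that of Pdk2, and in 7.15% of all windows, and ACGTG, the core of the HIF site, which the E-box contains, in 2 windows and in 19.6% of all. Both matches are shown on the strand of the gene with the motif in capitals, at chr11:95041484-95041505 for Pdk2 and, for Pdhb, where the motif is on the opposite strand, at chr14:8173228-8173242.
Pdk2: aggagagcCACGTGtcgaagcg
Pdhb: ctCACGTcacctctg
The match in Pdk2 begins 126 bases before the start site of its window. That in Pdhb begins 248 bases before the start site of its window, but this start lies inside the annotated gene, which spans chr14:8165991-8173303 on the minus strand, so the match lies within the gene and not before its annotated 5′ end. They are descriptions of the sequence and were not set against the signals by any test.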

How the data were processed

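The authors deposited 1 log2 value per transcript cluster and array. Per the submitters' processing notes these came from RMA in Affymetrix Expression Console. RMA corrects background, normalizes by quantiles and summarizes the probes of a cluster. The version, genome build and cluster annotation were not given in the sources used here. RNA extraction is given as Trizol by the labels and as a column kit by the methods. The 23332 rows were joined to symbols by the platform annotation, and 14996 had 1 symbol, 1019 several and 7317 none. Of 135 genes with several rows the row with the highest mean was kept.

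Group means over the 6 arrays were estimated together in limma 3.58.1 in R 4.3.3 (lmFit, eBayes, 3 residual and 2.68 prior degrees of freedom), with Benjamini-Hochberg adjustment across the whole table. The fit was tested on simulated data. Differences between genes were tested by exact two-sided permutation. Plots were made with Python 3.11.15 and matplotlib 3.10.9. The genes, gene lists, marker lists and tests were chosen with earlier results of these data known. From each list of related genes the 2 highest and 2 lowest ratios at 1 W TAC were named, and the nearest genes were given for the complex gene and the kinase gene of largest ratio. Alternatives were the replicate number as a block, a fit of the compared groups alone, each array left out, both arrays with high Ucp1 left out, fewer rows, median centring, cyclic loess, and a trended or robust prior. The methods give 2 mice a group. Limma's p values set each difference against the spread of these arrays within groups. That spread was pooled over the groups and moderated by a prior from all rows in the fit. No array intensities or exon values were used here.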

Additional observations from a re-analysis of the deposited data

How the results depend on the processing

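Each log2 ratio of the 7 genes at 1 W TAC against Sham stayed below 0 under all alternatives. Rows that passed at 1 W TAC were 0 higher and 1 lower with all rows in the fit. They were 210 and 65 in a fit restricted to rows with 1 gene symbol, 1 row per gene (14860 rows). For rows above the median signal they were 232 and 83, where fewer and brighter rows were tested. In both of these fits limma's prior was estimated anew from the rows kept. With median centring, cyclic loess and a trended prior 7, 2 and 13 rows were higher. With the replicate number as a block, with crossed numbers (a choice made after seeing the data), in a fit of 2 groups and without both arrays with high Ucp1, 0 were lower, and over single omissions 0 to 1 were higher and 0 lower. Same-numbered arrays deviated with r = 0.15 between the TAC times, -0.20 between 1 W TAC and Sham and -0.27 between 4 W TAC and Sham, so the numbers were not taken as pairs. At an unadjusted p under 0.05, the block left 3 of the 7 genes lower at 1 W TAC and 0 lower after 4 weeks, and crossed numbers left 5 and 1. At 4 W TAC that count was also 0 with 2 groups, and it was 0 to 1 over single omissions, 2 to 5 at 1 W TAC, and 0 to 3 higher at 4 W TAC against 1 W TAC. At 4 W TAC against Sham 1 row was higher with 1-symbol rows, and 1 higher and 1 lower with rows above the median. At 4 W TAC against 1 W TAC 2 rows were lower in both of these fits and 1 higher with median centring.

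The median ratio of the 7 genes at 1 W TAC was -0.62 with median centring and -0.43 with cyclic loess. Over single omissions it was -0.215 to -0.025 at 4 W TAC and 0.43 to 0.55 at 4 W TAC against 1 W TAC, where cyclic loess gave 0.35. Without both arrays with high Ucp1 these were 0.01 and 0.55. That omission turned the 4 W TAC ratios of Pdha1 (0.01), Dlat (0.20) and Dld (0.11), the medians of the pyruvate supply list (0.12) and the regulators (0.12), the ratio of Angptl4 at 1 W TAC (-0.13) and that of Pdk4 between the TAC times (-0.10). Over single omissions Dlat ran from -0.31 to 0.14 and Dld from -0.215 to 0.035 at 4 W TAC, Pdk4 from -0.10 to 0.43 between the TAC times, and Nr3c1 from -0.25 to 0.32 and Angptl4 from -0.13 to 0.48 at 1 W TAC. The 4 W TAC medians ran from -0.19 to 0.025 for the other complex and cofactor genes, -0.255 to 0.045 for pyruvate supply and -0.20 to 0.04 for the regulators. At 1 W TAC Nr3c1 was -0.055 with median centring and Ogdh 0.084 with cyclic loess. The cause was not tested. No other row could stand for a gene, since each of the 7 had 1 row, so that alternative gave no value.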
